A study of Mus musculus with 6 samples.

Results

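NF-Y is a trimeric transcription factor that binds CCAAT boxes, and its subunits are NF-YA, NF-YB and NF-YC. The genes described here are those of the NF-Y subunits (Nfya, Nfyb and Nfyc) and of 5 related proteins built on the same histone fold (Pole3, Pole4, Chrac1, Dr1 and Drap1). They were chosen by name, as 8 of the 35976 genes in the files, together with the 24 transcripts listed for Nfya, Nfyb and Nfyc among 106521. All 8 genes passed the filter on low counts, which 17348 genes passed.

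RNA-seq had been done on satellite cells (SCs), the stem cells of skeletal muscle, in 3 libraries of NF-YAcKO and 3 of NF-YAfl/fl. The labels give both groups as Satellite Cells of mice 5 to 7 weeks old that received tamoxifen, dissolved at 20 mg/ml. Mice of both groups carry NF-YA alleles with LoxP sites in introns 2 and 8. In NF-YAcKO, tamoxifen also activates a CreERT2 recombinase driven by Pax7, a factor of SCs, so that deletion is limited to cells that expressed Pax7, whereas NF-YAfl/fl carries no Cre. SCs were taken from hindlimb muscle by depletion of endothelial, blood and Sca1-positive cells and cultured in growth medium. The labels number the replicates without saying whether each is a separate mouse or culture, so p-values measure the spread between these samples, which may be technical.

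The libraries differed in more than the NF-YA allele. Levels are given as CPM, the counts scaled to library size after edgeR's TMM normalisation. Library totals were 31040863 to 41118984 expected counts in NF-YAcKO and 26936230 to 33316730 in NF-YAfl/fl. Xist, transcribed from the inactive X, was at 836 to 852 CPM in NF-YAcKO and at 0.306 to 0.475 CPM in NF-YAfl/fl, whereas the Y-linked Ddx3y had at most 3 counts in NF-YAcKO and 80.9 to 88.6 CPM in NF-YAfl/fl. The study's methods describe injected male mice, which goes against this pattern in the libraries labelled NF-YAcKO, so that effects of genotype and of sex cannot be told apart. No gene of the group lies on chromosome X or Y. The SC label was checked against 8 satellite cell and myoblast markers, which were all detected in both groups and summed to 1861 to 2122 CPM in NF-YAcKO and 3138 to 5957 CPM in NF-YAfl/fl. By edgeR FDR under 0.05, 2 of the 8 rose, with log2 fold changes of 0.94 for Pax7 and 0.86 for Vcam1, and 4 fell, with -1.25 for Itga7, -1.78 for Cdh15, -1.63 for Ncam1 and -2.09 for Des, while Myf5 and Myod1 overlapped between the groups. The 8 markers of differentiated muscle summed to 46.1 to 127 CPM and to 8702 to 11639 CPM, and the 8 macrophage markers to 126 to 242 CPM and to 5.39 to 14.5 CPM, in the same order. Markers of fibro-adipogenic progenitors summed to 466 to 537 and 127 to 450 CPM, those of Schwann cells to 98.4 to 112 and 51.4 to 89.2 CPM, and those of endothelium to 16.4 to 21.0 and 12.2 to 13.8 CPM. At the same threshold, 3 of the 8 fibro-adipogenic markers rose and Thy1 fell (-1.59), and Pdpn alone was at 246 to 307 CPM in NF-YAcKO. Of the 7 endothelial markers tested, 2 rose and Vwf fell (-1.42), and of the 8 Schwann cell markers 6 rose and 0 fell. Of the 7 macrophage markers tested, 6 rose and 0 fell, and Lyz2 alone was at 101 to 203 CPM in NF-YAcKO. Over all tested genes, 19.7% rose and 18.9% fell. No marker was at 0 in all libraries of a group. In bulk libraries fewer cells of a type and less RNA per cell cannot be told apart, and the part of these cell types in the values below was not tested.

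NF-YB and NF-YC pair through histone folds that resemble those of core histones, and NF-YA joins the pair and contacts the CCAAT sequence, so that all 3 subunits are needed for specific binding. POLE3 and POLE4 form a similar pair in DNA polymerase epsilon, the leading-strand replicase, and POLE3 also pairs with CHRAC1 in the CHRAC chromatin remodelling complex. DR1 and DRAP1 form negative cofactor 2 (NC2), which binds the TATA-binding protein and competes with the general factors TFIIA and TFIIB. In muscle, NF-Y is known for its place in proliferating myoblasts, and its NF-YA subunit exists in a longer and a shorter spliced form.

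Nfya lies on the minus strand of chromosome 17 (chr17:48386885-48409820, GRCm38). The floxed part holds exons 3 to 8 of the longer form (chr17:48391876-48399068), which carry 813 of its 1041 coding bases (78.1%). Exon 3, of 87 bases, is absent from the shorter form. The junctions that follow exon 2 (chr17:48400438-48400580) tell the longer, shorter and deleted forms apart. They are shown 5′ to 3′, with the 15 last bases of exon 2 in lower case and the first 15 bases of the next exon in capitals.
exon 2 to exon 3, longer form: cagattcagcagcagCAGCAGGGTGGTGTC
exon 2 to exon 4, shorter form: cagattcagcagcagGTCCAGGGGCAGCCG
exon 2 to exon 9, deleted allele: cagattcagcagcagAAATACCTCCATGAG
The exon 2 to exon 9 junction was joined from the annotated exons, since the sequence of the authors' own entry for the deleted allele was not used here. That entry is 2883 nt long, and the longer form without exons 3 to 8 is 2898 nt.

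The total of Nfya, the targeted gene, did not fall detectably. Nfya was at 27.0, 28.5 and 27.0 CPM in NF-YAcKO and at 23.4, 25.7 and 36.9 CPM in NF-YAfl/fl. The groups overlapped, with all NF-YAcKO libraries inside the range of NF-YAfl/fl, whose replicate 3 was the highest. The log2 fold change of NF-YAcKO over NF-YAfl/fl was -0.06 (SE 0.18, edgeR FDR = 0.814). Without NF-YAfl/fl replicate 3 it was 0.16 (edgeR FDR = 0.185), so the sign of this small difference rested on that library.

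The split of Nfya between alleles differed. The entry for the deleted allele received 189, 312 and 393 expected counts in NF-YAcKO and 0 in every NF-YAfl/fl library. These were 22.3% (95% Wilson interval 19.6 to 25.2), 26.4% (23.96 to 29.0) and 34.2% (31.5 to 37.0) of the Nfya counts. In TPM, which is per length, the entry took 27.25%, 31.96% and 40.54% of the gene. For the zeros in NF-YAfl/fl replicates 1, 2 and 3, the upper Wilson limits of the count share were 0.623%, 0.443% and 0.352%. A floor of 3 counts would give shares of 0.489%, 0.347% and 0.276%. These intervals and limits cover counting error only. Every NF-YAcKO library thus lay above every control (exact two-sided permutation test, p = 0.1, the smallest that 3 against 3 libraries can give). As NF-YAfl/fl carries no Cre, this order was set by the design, and the test adds nothing to it. Set against a floor of 3 counts per NF-YAfl/fl library, the mean of 7.69 ± 1.65 CPM (SD, n = 3) in NF-YAcKO was at least 75.5-fold higher. Another entry added by the authors, 425 nt long, was at 0 in all 6 libraries.

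The remaining Nfya transcripts, summed as intact Nfya, were at 21.0, 21.0 and 17.7 CPM in NF-YAcKO and at 23.4, 25.7 and 36.9 CPM in NF-YAfl/fl. All NF-YAcKO libraries lay below all controls, a pattern that 26.2% of the tested genes also had. Intact Nfya had a log2 fold change of -0.53 (SE 0.19) and missed the threshold (edgeR FDR = 0.0653). It crossed the threshold without NF-YAfl/fl replicate 1 (-0.66, edgeR FDR = 0.0497), with DESeq2 (-0.55, FDR = 0.0333) and with the filterByExpr filter (-0.56, edgeR FDR = 0.0492), and the FDR reached 0.163 at most, without NF-YAcKO replicate 3 (-0.47). The smallest difference, without NF-YAfl/fl replicate 3, was -0.31. RSEM divides reads from exons outside the deletion among all Nfya transcripts, so these levels are estimates of a split.

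**Figure D1:**
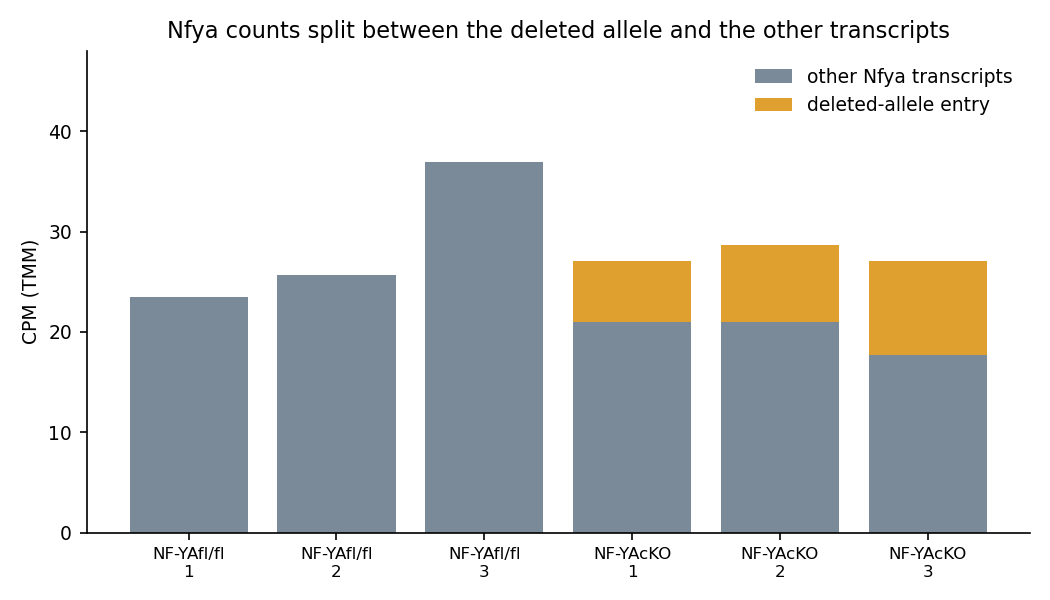
Stacked bars give the CPM of the Nfya transcripts in each library, with the deleted-allele entry above the sum of all other Nfya transcripts and replicate numbers under the bars. The deleted-allele entry appears in the 3 NF-YAcKO libraries alone, and the grey part of these bars (17.7 to 21.0 CPM) stays below the lowest control (23.4 CPM).

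At the transcript level, 8 of the 10 Nfya entries were detected in at least 1 library and 2 were detected in all 6. The longer form (NM_001110832.1) took 27.36%, 38.62% and 31.05% of the gene's TPM in NF-YAcKO and 53.33%, 57.31% and 39.83% in NF-YAfl/fl. All NF-YAcKO shares lay below all control shares (exact two-sided permutation test, p = 0.1, adjusted p = 0.48 over the transcripts of the 3 genes). The shares of a gene have a fixed sum, so the deleted entry lowers the others by its own share of TPM (27.25%, 31.96% and 40.54% in NF-YAcKO). The level of the longer form differed by -0.49 on the log2 scale (SE 0.21, edgeR FDR = 0.218 over 45367 transcripts).

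The shorter form (NM_010913.2) was less even between libraries. It received 138, 93.2 and 50.8 expected counts in NF-YAcKO, 0 in NF-YAfl/fl replicates 1 and 2, and 198 in NF-YAfl/fl replicate 3. Of the counts of NM_001110832.1 and NM_010913.2 alone, the longer form took 64.3%, 84.1% and 88.5% in NF-YAcKO and 100%, 100% and 68.5% in NF-YAfl/fl. The groups overlapped (exact two-sided permutation test, p = 0.5). NF-YAfl/fl replicate 3, the control with the most Nfya counts, was the only control library in which NM_010913.2 was listed above 0. Other Nfya entries also received counts, among them XM_006523795.1 in all 6 libraries and XM_006523796.1 with 162 in NF-YAfl/fl replicate 2. Which of these entries hold exon 3 was not examined, so a 0 for NM_010913.2 does not show that exon 3 was always kept.

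Nfyb and Nfyc, the histone-fold partners of NF-YA, were both higher in NF-YAcKO. The study had already described higher NF-YB and NF-YC transcripts beside the NF-YA decrease, called not significant there, and a western blot of NF-YB in the same direction. Nfyb (chr10:82748700-82764151) was at 40.0, 41.2 and 39.4 CPM in NF-YAcKO against 20.3, 21.3 and 19.6 CPM in NF-YAfl/fl. The groups were far apart, and within each the libraries differed by less than 2 CPM. Its log2 fold change was 0.98 (SE 0.09, edgeR FDR = 0.000603), which is 1.97-fold, and it passed the threshold of FDR under 0.05 in all 14 alternatives, with log2 fold changes of 0.83 to 1.0.

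Nfyc (chr4:120757435-120831579) was at 47.3, 49.2 and 52.9 CPM in NF-YAcKO and at 33.7, 38.6 and 34.9 CPM in NF-YAfl/fl, without overlap. The log2 fold change of Nfyc was 0.48 (SE 0.10, edgeR FDR = 0.00953), or 1.39-fold. On the TPM scale, which is per length and sums to the same total in each library, the groups overlapped (26.9 to 32.6 against 18.2 to 29.3 TPM), and limma on log2(TPM + 1) gave 0.39 (FDR = 0.174). The call was also lost without NF-YAcKO replicate 2 (0.45, edgeR FDR = 0.0567) or replicate 3 (0.41, edgeR FDR = 0.0624).

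Both genes were carried mainly by a single transcript in both genotypes. NM_010914.2 held 92.4% ± 1.61 (SD, n = 3) of the Nfyb TPM in NF-YAcKO and 90.9% ± 5.12 in NF-YAfl/fl, and NM_008692.4 held 75.9% ± 1.81 and 74.96% ± 4.38 of the Nfyc TPM. The main transcript's share thus differed by less than the spread between replicates for either gene. The level of NM_010914.2 rose by 1.03 on the log2 scale (SE 0.10, edgeR FDR = 0.00691) and that of NM_008692.4 by 0.54 (SE 0.11, edgeR FDR = 0.0380). Leaving out any 1 of the 6 libraries cost the Nfyc transcript its call, with log2 fold changes of 0.49 to 0.60, whereas the Nfyb transcript passed with each library left out (0.99 to 1.07). Of the 21 transcripts of Nfya, Nfyb and Nfyc that were tested, 3 were higher in NF-YAcKO (the deleted Nfya entry and these main transcripts) and 0 were lower, beside 4.78% and 4.53% of all transcripts tested. The deleted entry passed the count filter through NF-YAcKO alone, so its call was set by the design. At an unadjusted p under 0.05, the same edgeR test had 11017 transcripts of 45367.

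**Figure D2:**
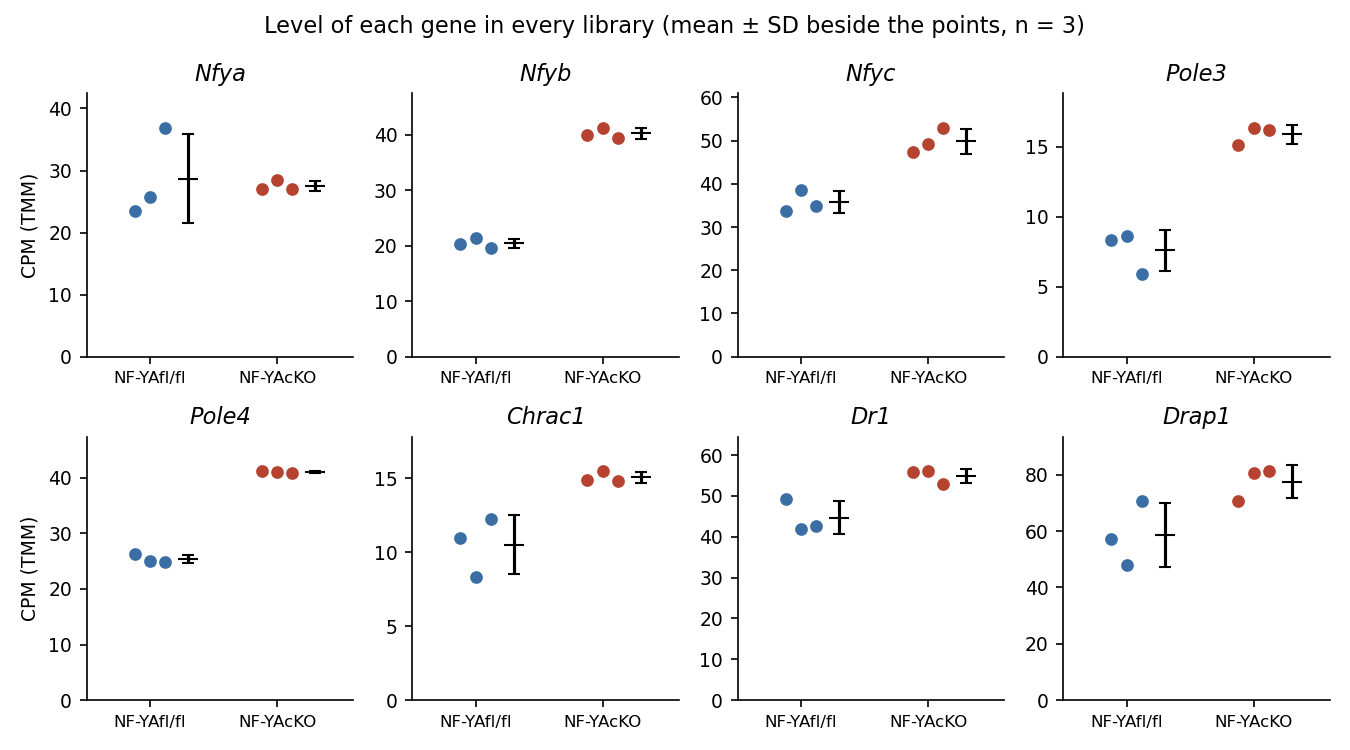
Each panel gives the CPM of a gene in the 3 NF-YAfl/fl and 3 NF-YAcKO libraries as points, in replicate order, with the mean and SD beside them, and every axis starts at 0. The genotypes overlap only in the panel of Nfya, but for Drap1 the nearest points are almost level (70.8 and 70.6 CPM). The control points are the more scattered relative to their mean.

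CCAAT boxes were looked for in RefSeq promoter windows (GRCm38.p6, 250 bases before to 50 after an annotated start), because NF-Y binds them. The letters CCAAT or their complement ATTGG were searched for. Windows were given for 7 of the 8 genes, 12 in all, and 3 of the 12 held the letters, against 37.4% of 32851 windows. A window of Nfyc (chr4:120825160-120825459) held 5, a number that 0.271% of windows reached or exceeded. As it was named for being the highest of the 12, this percentage is no test. The 4 sites of this window nearest the annotated start are shown on the strand of Nfyc with the box in capitals, named by the distance of its first base.
99 bases before the start, chr4:120825294-120825318: gctttctcccATTGGcggaaggcga
63 bases before the start, chr4:120825258-120825282: ctcgctcgtgATTGGtcggcggcgg
25 bases before the start, chr4:120825220-120825244: ctggcaccttATTGGtcacgccggc
14 bases after the start, chr4:120825181-120825205: tgatgaaggaATTGGcggctgtcgg
Another window of Nfyc held 3, and the remaining Nfyc window (chr4:120825692-120825991) held 0. An Nfya window that reaches into exon 2 (chr17:48400531-48400830) held 1, and the other Nfya windows held 0. The windows of Nfyb, Pole3, Pole4, Dr1 and Drap1 held none of these letters. A match in letters is a description of the sequence and not of binding.

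The proportion of the subunits to each other was compared within libraries, where a ratio does not depend on how libraries are scaled. Nfyb reached 0.632, 0.620 and 0.556 of the Nfyc level in TPM in NF-YAcKO, and 0.453, 0.414 and 0.420 of it in NF-YAfl/fl. The pair of histone-fold subunits was therefore closer to equal in every NF-YAcKO library than in any control. The difference was 0.49 on the log2 scale, larger than the pooled SD of 0.0852.

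Relative to intact Nfya the shift was larger. The ratio of Nfyb to intact Nfya in TPM was 2.82, 2.92 and 3.32 in NF-YAcKO and 1.303, 1.23 and 0.791 in NF-YAfl/fl. For Nfyc to intact Nfya it was 4.47, 4.71 and 5.96 against 2.88, 2.97 and 1.88. In both ratios the groups did not overlap, and NF-YAfl/fl replicate 3 was the lowest library. The log2 differences were 1.48 and 0.99, which are 2.78-fold and 1.98-fold. Against total Nfya, which counts the deleted transcript, the differences were 0.89 for Nfyb and 0.40 for Nfyc, and the latter was 0.19 without NF-YAfl/fl replicate 3. Intact Nfya leaves out an entry that had counts in NF-YAcKO alone. That the differences were larger against intact than against total Nfya was therefore set by the design. Each of these 5 comparisons gave p = 0.1 in an exact two-sided permutation test, the smallest p possible (adjusted p = 0.133 over 8 ratios).

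**Figure D3:**
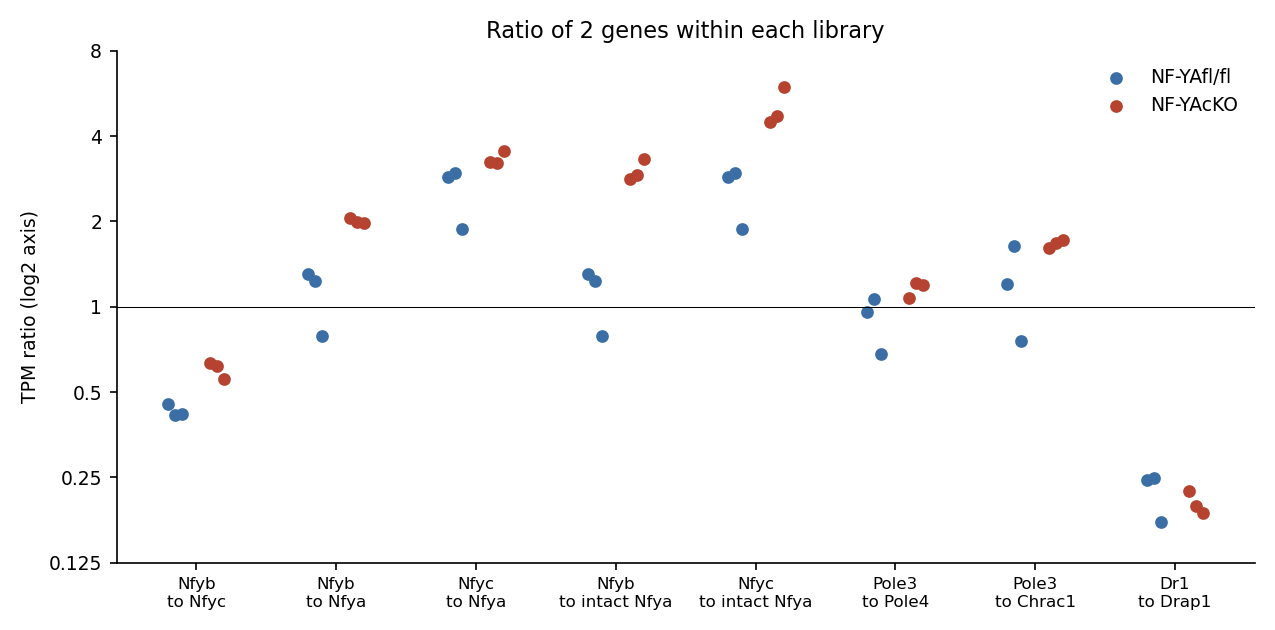
Points give the TPM ratio of a pair of genes in each library, on a log2 axis, for the 8 pairs compared. NF-YAcKO libraries lie above all NF-YAfl/fl libraries in 6 pairs, most clearly for Nfyb to intact Nfya (2.82 to 3.32 against 0.791 to 1.303), and overlap them for Pole3 to Chrac1 and Dr1 to Drap1.

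Among the related histone-fold genes, those of DNA polymerase epsilon changed most. Pole3 (chr4:62523798-62525014) was at 15.1, 16.4 and 16.2 CPM in NF-YAcKO and at 8.33, 8.59 and 5.94 CPM in NF-YAfl/fl. NF-YAfl/fl replicate 3 was again the library apart, here on the low side, and the groups were separate. With a log2 fold change of 1.06 (SE 0.17, edgeR FDR = 0.00417), or 2.09-fold, Pole3 was the only gene of the 8 to pass the study's stricter rule, which asks for a log2 fold change beyond 1 in either direction at an FDR under 0.01.

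Pole4 (chr6:82616532-82653043), which encodes the partner of POLE3 in the polymerase, had the smallest coefficient of variation of the 8 genes in CPM in both genotypes, but the largest in TPM in NF-YAcKO (10.3%). Pole4 was at 41.1, 41.0 and 40.8 CPM in NF-YAcKO and at 26.2, 25.1 and 24.8 CPM in NF-YAfl/fl. The groups lay apart, with a log2 fold change of 0.69 (SE 0.09, edgeR FDR = 0.00161). Pole3 and Pole4, like Nfyb, passed the threshold under all 14 alternatives. The ratio of Pole3 to Pole4 in TPM was 1.07, 1.21 and 1.20 in NF-YAcKO and 0.961, 1.06 and 0.681 in NF-YAfl/fl. The nearest libraries of the groups almost touched (1.07 against 1.06), and the exact two-sided permutation test gave p = 0.1 (adjusted p = 0.133). The log2 difference was 0.39, and 0.20 without NF-YAfl/fl replicate 3.

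Chrac1 (chr15:73090412-73094075), for the CHRAC subunit that pairs with POLE3, was at 14.9, 15.5 and 14.8 CPM in NF-YAcKO and at 11.0, 8.33 and 12.2 CPM in NF-YAfl/fl. All NF-YAcKO libraries were higher, and the controls were spread more widely. The log2 fold change of 0.52 (SE 0.17) passed narrowly (edgeR FDR = 0.0458). The call was lost in 7 of 14 alternatives, among them leaving out any NF-YAcKO library or NF-YAfl/fl replicate 1, with an FDR of up to 0.163 in edgeR, and the log2 fold change stayed between 0.37 and 0.64. Pole3 to Chrac1 in TPM overlapped between the genotypes (1.61, 1.67 and 1.72 against 1.20, 1.64 and 0.758; exact two-sided permutation test, p = 0.2, adjusted p = 0.229).

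The NC2 genes had the smallest log2 fold changes of the 5 related genes in the fit of all 6 libraries. Dr1 (chr5:108268897-108280521) was at 55.8, 56.0 and 53.0 CPM in NF-YAcKO and at 49.2, 41.9 and 42.7 CPM in NF-YAfl/fl, where replicate 1 came nearest to the NF-YAcKO libraries. Its log2 fold change of 0.30 (SE 0.10, edgeR FDR = 0.0487) lost its call in 12 of 14 alternatives, among them leaving out any NF-YAcKO library and NF-YAfl/fl replicate 2 or 3 (0.25 to 0.30). In TPM the groups overlapped for Dr1 (18.6 to 21.7 against 13.7 to 19.7 TPM).

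Drap1 (chr19:5422804-5424979), for the other NC2 subunit, was at 70.8, 80.6 and 81.2 CPM in NF-YAcKO and at 57.1, 47.8 and 70.6 CPM in NF-YAfl/fl. NF-YAcKO replicate 1 and NF-YAfl/fl replicate 3 were almost level. The log2 fold change was 0.41 (SE 0.15) and missed the threshold (edgeR FDR = 0.0744), while without NF-YAfl/fl replicate 3 it was 0.56 and passed (edgeR FDR = 0.00597). The ratio of Dr1 to Drap1 in TPM was 0.224, 0.198 and 0.187 in NF-YAcKO and 0.244, 0.249 and 0.174 in NF-YAfl/fl, with overlap (exact two-sided permutation test, p = 0.6).

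Over the group, 6 of the 8 genes (Nfyb, Nfyc, Pole3, Pole4, Chrac1 and Dr1) rose at an edgeR FDR under 0.05, as 19.7% of all tested genes did, and 0 fell, as 18.9% did. The single gene past the study's rule stands beside 4.65% of tested genes higher and 7.67% lower by that rule. These shares are of edgeR values, whereas the study applied its rule to DESeq2. By the same rule DESeq2 called 986 genes higher and 1804 lower here. In CPM, 7 of the 8 genes had every NF-YAcKO library above every control, beside 29.1% of tested genes. The median log2 fold change of the 8 genes was 0.50, and that of all tested genes -0.02. The count of 6 fell to 3 without NF-YAcKO replicate 2 or replicate 3 and ranged from 4 to 6 in the other alternatives at the same threshold, and DESeq2 called 5. Over all tested genes edgeR called 3418 higher and 3285 lower, whereas limma on log2(TPM + 1) called 1547 and 2281. Tested genes with an unadjusted p under 0.05 in edgeR numbered 8449, and no alternative called any of the 8 genes lower.

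**Figure D4:**
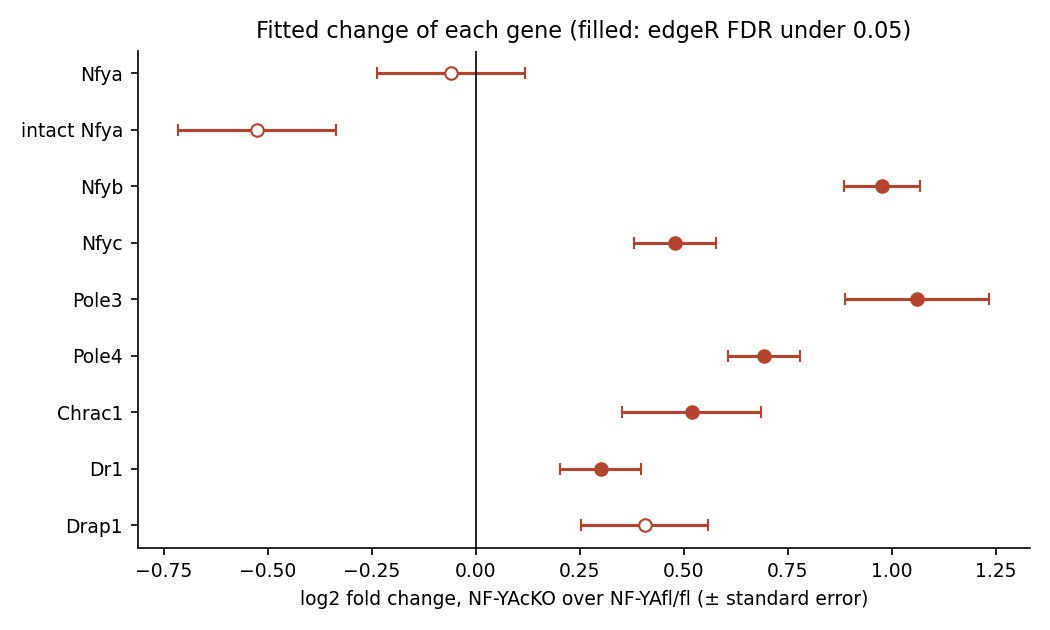
Points give the fitted log2 fold change of NF-YAcKO over NF-YAfl/fl with its standard error for the 8 genes and for intact Nfya. Filled points passed an edgeR FDR under 0.05; they lie between 0.30 (Dr1) and 1.06 (Pole3), and only the Nfya points lie below 0.

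In order of level per length, Drap1 came first in both genotypes, at 99.3 ± 6.72 TPM in NF-YAcKO and 78.3 ± 0.85 TPM in NF-YAfl/fl (SD, n = 3). In NF-YAcKO it was followed by Pole3 (39.3 TPM), Pole4 (34.1 TPM) and Nfyc (29.8 TPM), with ranges over libraries that overlapped for Pole3 and Pole4 and for Pole4 and Nfyc. Chrac1 (23.6 TPM) came next, before Dr1 (20.1 TPM) and Nfyb (17.9 TPM), whose ranges overlapped, and Nfya was last (8.94 ± 0.486 TPM). Within each of the 3 NF-YAcKO libraries, however, Pole3 was above Pole4, Pole4 above Nfyc and Dr1 above Nfyb. In NF-YAfl/fl the middle of the order was not resolved, since Nfyc (22.9 TPM), Pole4 (22.3 TPM), Pole3 (20.6 TPM), Dr1 (17.4 TPM) and Chrac1 (17.2 TPM) each overlapped their neighbour. Nfyb (9.78 ± 2.26 TPM) and Nfya (8.96 ± 1.41 TPM) closed the order and overlapped. The range of Nfyb thus overlapped that of Nfya in controls and lay above it in NF-YAcKO.

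Replicates were tighter in NF-YAcKO for all 8 genes in CPM. The coefficient of variation ran from 0.382% (Pole4) to 7.55% (Drap1) in NF-YAcKO and from 2.90% (Pole4) to 25.1% (Nfya) in NF-YAfl/fl. In TPM this was turned for Drap1 (6.77% against 1.09%) and Chrac1 (6.23% against 5.00%). The same direction held over all genes, with an edgeR biological coefficient of variation of 0.105 in NF-YAcKO and 0.310 in NF-YAfl/fl.

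Genes whose pattern over the 6 libraries was most like that of a subunit were taken from 9456 genes whose mean was at least 10 CPM, by the smallest root mean square difference of centred log2 CPM. For Nfya these were Hs2st1 (0.0292), Sufu (0.0335) and Cdk11b (0.0388), against a median of 0.316 over the genes compared. Hs2st1 had the profile of 129, 135 and 133 CPM in NF-YAcKO and 110, 119 and 173 CPM in NF-YAfl/fl. Its high NF-YAfl/fl replicate 3, like that of Nfya, follows from the choice by likeness. For Nfyb they were Slc25a5 (0.0255), Prpf31 (0.0303) and Mpdu1 (0.0306), with a median of 0.471 over the genes compared, and Slc25a5 is on chromosome X. For Nfyc they were Sart1 (0.0244), Mapk3 (0.0299) and Cep63 (0.0336), with a median of 0.304. The compared values share the 6 libraries and their depth, and the nearest of 9456 genes lie below the median by selection.

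The direct partners of the related histone-fold proteins were read beside them. Pole, the catalytic subunit of polymerase epsilon, and Pole2, its second subunit, rose with Pole3 and Pole4, by 1.13 (edgeR FDR = 0.00546) and 1.58 (edgeR FDR = 0.0123) on the log2 scale. Of the CHRAC partners, Smarca5, the remodelling ATPase, rose by 0.71 (edgeR FDR = 0.00182), and Baz1a, its large partner, had a log2 fold change of 0.22 with overlapping groups (edgeR FDR = 0.260). Of the 4 genes for factors that meet NC2 at promoters, Gtf2b (TFIIB) rose by 0.61 (edgeR FDR = 0.00965) and Gtf2a2 (a TFIIA subunit) by 0.34 (edgeR FDR = 0.0300), while Tbp had 0.31 (edgeR FDR = 0.0704) and Gtf2a1 -0.06 (edgeR FDR = 0.831).

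Other histone-fold genes were counted over lists, beside the 19.7% of all tested genes that were higher and the 18.9% that were lower at this threshold. Among 14 genes of TFIID and SAGA subunits, 6 rose, led by Taf4b (0.82), Taf9 (0.60) and Taf6 (0.59), and Supt3, of SAGA, fell by 0.45 (edgeR FDR = 0.0458), with a list median of 0.27. Of 4 centromere proteins, 3 rose, which were Cenps (listed as Apitd1, 1.54), Cenpw (1.28) and Cenpt (0.39), and Cenpx (listed as Stra13) had 0.40 (edgeR FDR = 0.112). Among 12 factors that cooperate with NF-Y at promoters, only Sp3 rose (0.58), while Fos (-1.35), Atf6 (-0.79) and Srebf2 (-0.46) fell, and the list median was -0.04.

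Genes taken to have CCAAT promoters were divided by function and read against the same 19.7% higher and 18.9% lower. Their promoter windows were not searched here for the letters. Of 12 cell cycle genes, 11 rose and 0 fell, with a median of 1.28, the largest changes being those of Rrm2 (1.71), a ribonucleotide reductase subunit, Aurka (1.47), a mitotic kinase, and Ccnb1 (1.46), a mitotic cyclin. Cdc25b had 0.66 (edgeR FDR = 0.122). The study had already reported higher Ccna2, Ccnb2 and Top2a in NF-YAcKO from these RNA-seq data. The count of 11 is therefore no independent test of the list. Of 12 endoplasmic reticulum and sterol genes, 0 rose and only Fdft1, of sterol synthesis, fell (-0.51, edgeR FDR = 0.0357), with a median of 0.16. The median log2 fold change of all tested genes was -0.02.

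**Figure D5:**
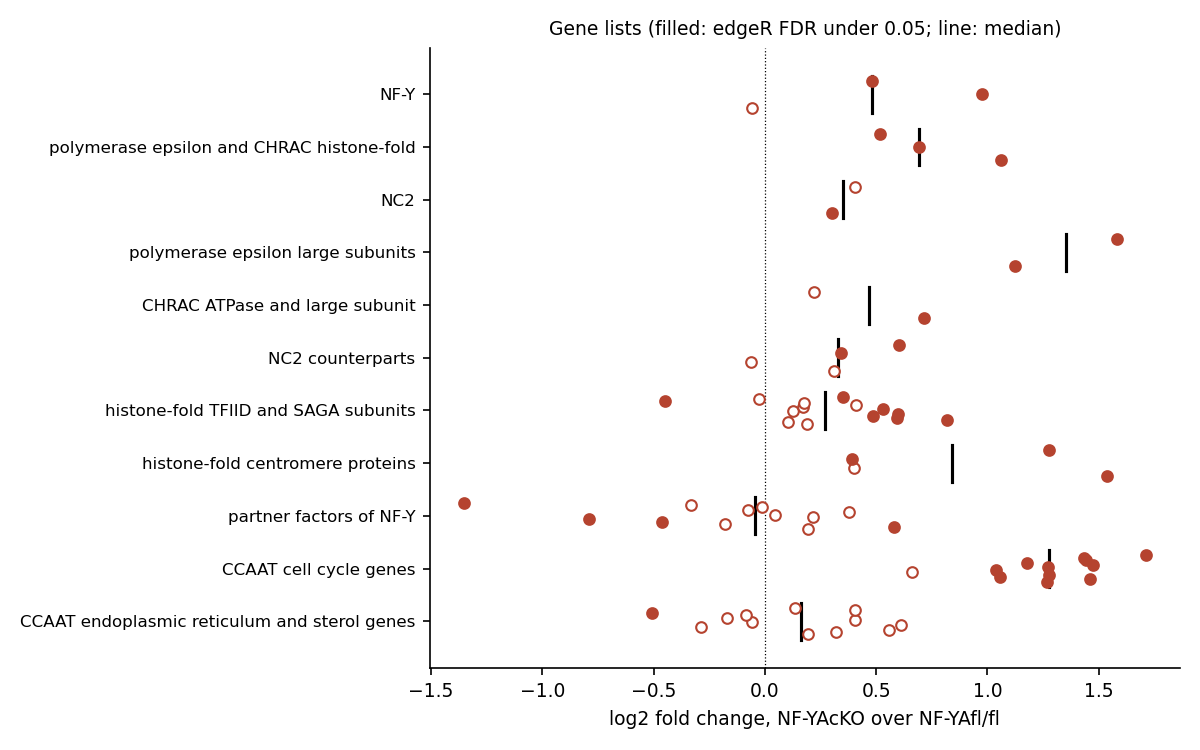
Each row is a gene list, each point the log2 fold change of NF-YAcKO over NF-YAfl/fl of a gene in it, filled where the edgeR FDR was under 0.05, and the vertical line is the list's median. The cell cycle genes (median 1.28) lie farther right than the lists of the 8 genes (medians 0.35 to 0.69), and the partner factors are centred near 0 (median -0.04).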

How the data were processed

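RNA-seq of SCs from NF-YAcKO and NF-YAfl/fl (3 libraries each, groups from the labels) was read from tables at gene and transcript level. Libraries were TruSeq Stranded Total RNA. The authors aligned reads to the mm10 transcriptome with Bowtie2 and quantified them with RSEM, and deposited expected counts, which need not be whole, because a read matching several transcripts is split. The deposited TPM values are scaled by length and to an equal sum per library and keep no depth. The deposited IsoPct is the percent of a gene's TPM in a transcript. The genes and lists were chosen with earlier results of these data known.

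Expected counts were rounded, and features counted over 10 times in 2 or more libraries were tested (17348 of 35976 genes and 45367 of 106521 transcripts). edgeR 4.0.16 was used in R 4.3.3 with TMM normalization, the quasi-likelihood test and Benjamini-Hochberg adjustment over all features tested. The threshold was an FDR under 0.05 with no fold minimum, and the study's rule, applied to the edgeR values, stands beside it. The standard error is the log2 fold change divided by the square root of F. Intact Nfya replaced the Nfya row in a fit over all genes. Shares and TPM ratios were compared with exact permutation tests (scipy 1.17.1). Named genes were the 8 genes, the transcripts of Nfya, Nfyb and Nfyc, the 3 nearest in pattern to each subunit, all direct partners, and at most 3 genes in each direction of a list, with the largest change past the threshold. Cdc25b and Cenpx were named after their values were seen. Log2 CPM for the pattern search had an offset of 0.5.

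On simulated counts of 16992 genes for this comparison, the fit recovered 31 of 88 genes changed 2-fold and 88 of 112 changed 4-fold, with 8 false calls and a median absolute error of 0.171 (log2). No pair of replicates was within sampling noise. Alternatives were DESeq2 1.42.0, its size factors, no filter, filterByExpr, limma 3.58.1 on log2(TPM + 1) and log2(TPM + 0.1), voom with weights per genotype, a replicate block, the study's rule, and leaving out each library. Coordinates are from RefSeq (GRCm38.p6) and Nfya exons from GENCODE (GRCm38). Plots were drawn with matplotlib 3.10.9.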

Additional observations from a re-analysis of the deposited data

How the results depend on the processing

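Over 25 results and 277 alternative values, 3 turned direction, all for total Nfya, which went from -0.06 to 0.0067 and 0.0085 (log2) with limma on log2(TPM + 1) and log2(TPM + 0.1) and ranged from -0.19 to 0.16 with each library left out in turn. Nfyc fell short of the threshold with the same limma fits (0.39 and 0.41) and ranged from 0.41 to 0.53 with libraries left out. Intact Nfya passed with DESeq2 (-0.55) and filterByExpr (-0.56) and ranged from -0.66 to -0.31 with libraries left out. Transcript NM_008692.4 of Nfyc missed the threshold with no filter on low counts (0.57) and ranged from 0.49 to 0.60 with libraries left out. The number of the 8 genes called higher was 3 to 6 with libraries left out and 1 by the study's rule. Over all genes, 1739 to 4456 were called higher and 1981 to 4088 lower with libraries left out, 1547 and 1623 higher with the limma fits, and 806 higher and 1331 lower by the study's rule. Over all transcripts, DESeq2 called 4454 higher and 4864 lower, edgeR 2169 and 2053, and edgeR with libraries left out 252 to 2778 and 685 to 2162. The cause of these changes was not tested.

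Libraries with the same replicate number deviated little together (r = 0.17, -0.07 and 0.05 over genes for numbers 1, 2 and 3). NF-YAcKO replicates 1 and 3 correlated best with their own number, and replicate 2 with NF-YAfl/fl replicate 3 (r = 0.10). These few correlations showed no clear pairing by number and cannot exclude one. With the replicate block, 4 of the 8 genes were called higher (Chrac1 and Dr1 were not), the main transcripts of Nfyb (1.03) and Nfyc (0.54) missed the threshold, and 0 transcripts were called, of 8386 with an unadjusted p under 0.05 in edgeR. Replicates of a group differed by more than sampling noise at this depth (chi-square per gene of 13.6 to 222 over pairs of libraries), and depth itself was not varied. For the deleted Nfya entry, depth sets the limit of a share in controls, at 0.276% to 0.489% by the floor of 3 counts.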
